A study of Mus musculus with 6 samples.

Results

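The 40 genes described here encode the machinery of DNA replication and the regulators that start S phase. They were chosen by name from a list of the field's standard replication genes, with earlier results of these data known. Counts over the 40 are therefore descriptions, and the 40 were not tested as a set. The genes were sorted by role into licensing (8 genes), helicase activation (5), polymerases (6), clamp and clamp loader (5), flap processing and single-strand binding (4), nucleotide supply (4), chromatin assembly (2) and G1/S regulators (6). All 40 were found among the 47643 reference gene identifiers of the deposited tables, and all 40 passed the filter on low values that left 12186 genes for testing. The cells were natural regulatory T cells (nTregs, CD4 T cells that express the transcription factor Foxp3) from spleens of C57BL/6 mice of genotype Foxp3-DTR/EGFP, in which Foxp3-expressing cells carry a diphtheria toxin receptor and EGFP. All cells, vehicle controls included, had first been activated for 2 days with plate-bound antibody to CD3, soluble antibody to CD28 and IL-2. They were then kept for 6 h with DMSO vehicle (3 libraries) or with a 100 nM dose of an agonist for EP4, which is one of the prostaglandin E2 receptors (3 libraries), sorted on GFP and sequenced as poly(A) RNA. The ages of the mice are not given in the labels, nor whether replicates came from different mice or cultures. The p-values therefore refer to the spread among these libraries only, part of which may be technical.

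Before a cell copies its DNA, the origin recognition complex, Cdc6 and Cdt1 load the ring-shaped MCM2-7 helicase onto origins, a step called licensing. At the start of S phase Cdc45 and the GINS complex join the ring and activate it, primase and the polymerases copy both strands, and a sliding clamp, PCNA, placed by the RFC clamp loader, keeps the polymerases on the template. Most of these genes are transcribed together at the G1/S boundary by E2F transcription factors, and resting T cells switch them on when an antigen receptor signal and IL-2 drive them into the cycle.

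The libraries rest on 4.32 to 5.65 gigabases of aligned sequence. The lowest deposited coverage value of any member in any library was 13.3, for Gins1. These values do not follow FPKM alike in every gene, since Gins3, lower in FPKM, had a lowest coverage of 41.5. Treg markers were present throughout, with Foxp3 between 109 and 154 FPKM (fragments per kilobase of gene model, scaled to library size). The summed level of 6 Treg markers was 1488 to 1588 FPKM in vehicle libraries and 1640 to 1810 FPKM in agonist libraries. Of the 6, 1 rose with the replicate block described below, beside 4.09% of all tested genes. Group means, vehicle first, were 242 and 380 FPKM for Ctla4, 132 and 135 for Foxp3, and 848 and 850 for Il2ra. They were 114 and 129 FPKM for Cd4, 179 and 184 for Cd3e, and 29.7 and 36.8 for Ikzf2. The part of these markers in the results was not tested. Markers of other cells were low. The summed level of 6 B cell markers was 5.76 to 6.07 FPKM with vehicle and 3.76 to 6.26 FPKM with the agonist. The 1 of them that passed the filter, Cd79b, had 5.09, 4.59 and 5.02 FPKM in vehicle replicates 1 to 3 and 3.62, 4.54 and 3.03 FPKM in agonist replicates 1 to 3, without overlap (log2 difference -0.33, limma, adjusted p = 0.336), and its part in the results below was not tested. The sum of 2 CD8 T cell markers was 3.89 to 5.43 FPKM with vehicle and 4.53 to 6.40 FPKM with the agonist, of 4 NK cell markers 0.388 to 1.43 and 0.170 to 0.699, and of 6 myeloid markers 0.128 to 0.826 and 0.192 to 0.534. Hba-a1, a globin gene of red blood cells, had 1.45, 3.36 and 5.67 FPKM in vehicle replicates 1 to 3 and 0.601, 2.19 and 2.55 FPKM in agonist replicates 1 to 3. Replicate 1 was lowest in both groups, as it was for the replication genes. Hba-a1 fell with the replicate block, and its part in the results below was not tested. S100a8, a defining marker of neutrophils, was at 0 in all 6 libraries.

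Transcripts of the replication machinery had slightly lower values in nTregs kept with the EP4 agonist for most of the 40 genes, with changes of the mean from -22.4% for E2f2 to 4.17% for Rfc2. The summed FPKM of the 40 genes was 2258, 2762 and 2760 in vehicle replicates 1 to 3 and 1946, 2334 and 2343 in agonist replicates 1 to 3. The means were 2593 ± 291 FPKM in vehicle libraries and 2207 ± 226 FPKM in agonist libraries (SD, n = 3 each), a change of -14.9%. Vehicle replicate 1 lay below agonist replicates 2 and 3, so the groups overlapped. Between libraries of the same replicate number the change was -13.8%, -15.5% and -15.1%. In a bulk sample, a smaller share of cells in S phase and less of these transcripts per cell cannot be told apart.

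Gene by gene, 39 of the 40 had a log2 difference (agonist minus vehicle, of log2(FPKM + 1)) below 0, where 57.2% of all tested genes did. The median was -0.23, against -0.030 for all tested genes, and it was -0.14 without agonist replicate 1. Single genes ran from -0.36 for E2f2 to 0.066 for Rfc2. In limma's moderated test without a block, 0 of the 40 passed an adjusted p of 0.05 in either direction, in a test that called 0.0492% of all genes lower and 0.345% higher. At an unadjusted p under 0.05, 9 of the 40 were lower and 0 higher, beside 8.74% and 5.22% of all tested genes. That count of 9 depended on single libraries. Leaving out vehicle replicate 1 gave 25 (12.9% of all tested genes). It was 1 when vehicle replicate 2 (4.63%), vehicle replicate 3 (5.26%) or agonist replicate 1 (5.99%) was dropped, and 10 and 4 when agonist replicates 2 (8.08%) and 3 (5.88%) were. For 8 of the 40 all agonist values lay below all vehicle values (Tk1, E2f1, Tyms, Rpa1, Pold1, Cdc45, Rfc4 and Gins2), which held for 12.1% of all tested genes, and for 0 of the 40 did they all lie above (7.27% of all tested genes).

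Libraries with the same replicate number varied together, and the 40 genes show this strongly. The labels do not say what the number stands for, so the pairing used below was inferred from these same libraries. Replicate 1 was the lowest vehicle library for 38 of the 40 genes and the lowest agonist library for 36, shares that over all tested genes were 35.9% and 33.4%. Relative to the mean of replicates 2 and 3, replicate 1 was lower by a median log2 difference of -0.28 among vehicle libraries and of -0.25 among agonist libraries, while the median over all tested genes was 0.024 and 0.027. This difference between replicates was as large as the one between treatments. In vehicle replicate 1 alone, 26 of the 40 genes were below the mean of agonist replicates 2 and 3. Vehicle replicates 2 and 3 both exceeded all agonist libraries for 36 of the 40, beside 24.6% of all tested genes.

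**Figure D1:**
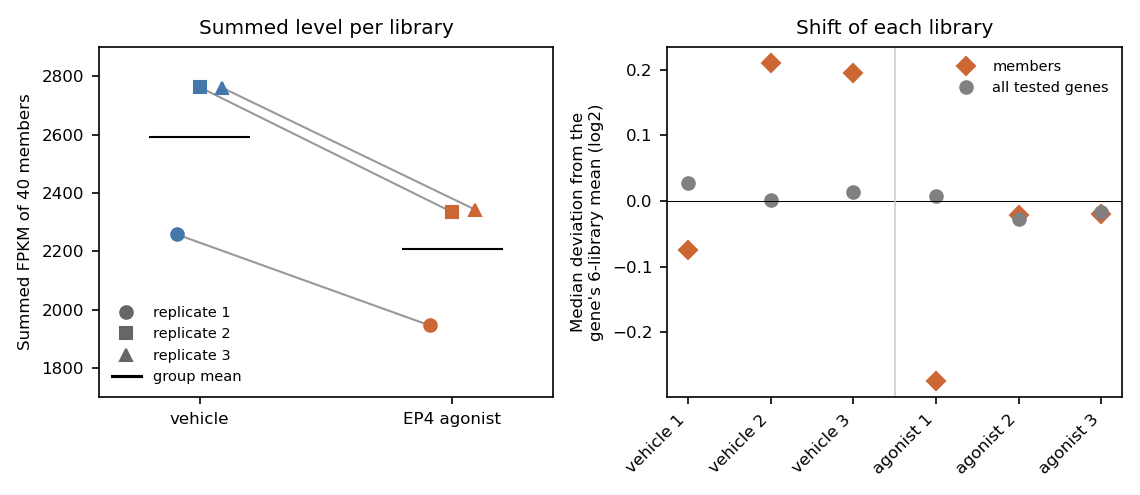
Left, summed FPKM of the 40 genes in each library (linear axis that starts above 0), with lines joining libraries of the same replicate number and bars at the group means. Right, the median deviation of each library from the gene's mean over 6 libraries on the log2 scale, for the 40 members and for all 12186 tested genes. Replicate 1 is the lowest library in both groups, each agonist library lies below its vehicle partner, and the medians over all genes stay between -0.028 and 0.028.

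When limma was given the replicate number as a block, it called 18 of the 40 lower and 0 higher at an adjusted p of 0.05, beside 6.41% of all tested genes lower and 4.09% higher. In limma without the block the adjusted p of the 40 ran from 0.198 to 0.870. Of the 40, 38 were lower in all 3 pairs, against 31.6% of all tested genes. The exceptions were Rfc2 and Prim2. The blocked count depended on scaling. It was 7 with upper quartile scaling (3.84% of all genes called lower) and 4 with quantile normalization (3.92%). The 4 were Cdt1, Tk1, E2f1 and E2f2, and the 7 were these with Mcm2, Mcm6 and Rrm2. Both sets held licensing, nucleotide supply and G1/S genes only. Blocked results for single genes and role groups below are for FPKM without such scaling, and most did not pass with it. The blocked count was 0 when any 1 pair was left out. Those fits called only 0.739%, 0% and 0% of all tested genes lower without pairs 1, 2 and 3. They therefore cannot show whether the count rests on 1 pair. At an unadjusted p under 0.05 they had 30, 28 and 24 members lower, beside 17.8%, 13.2% and 12.4% of all tested genes. With coverage in place of FPKM the blocked count was 23 (9.88%).

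**Figure D2:**
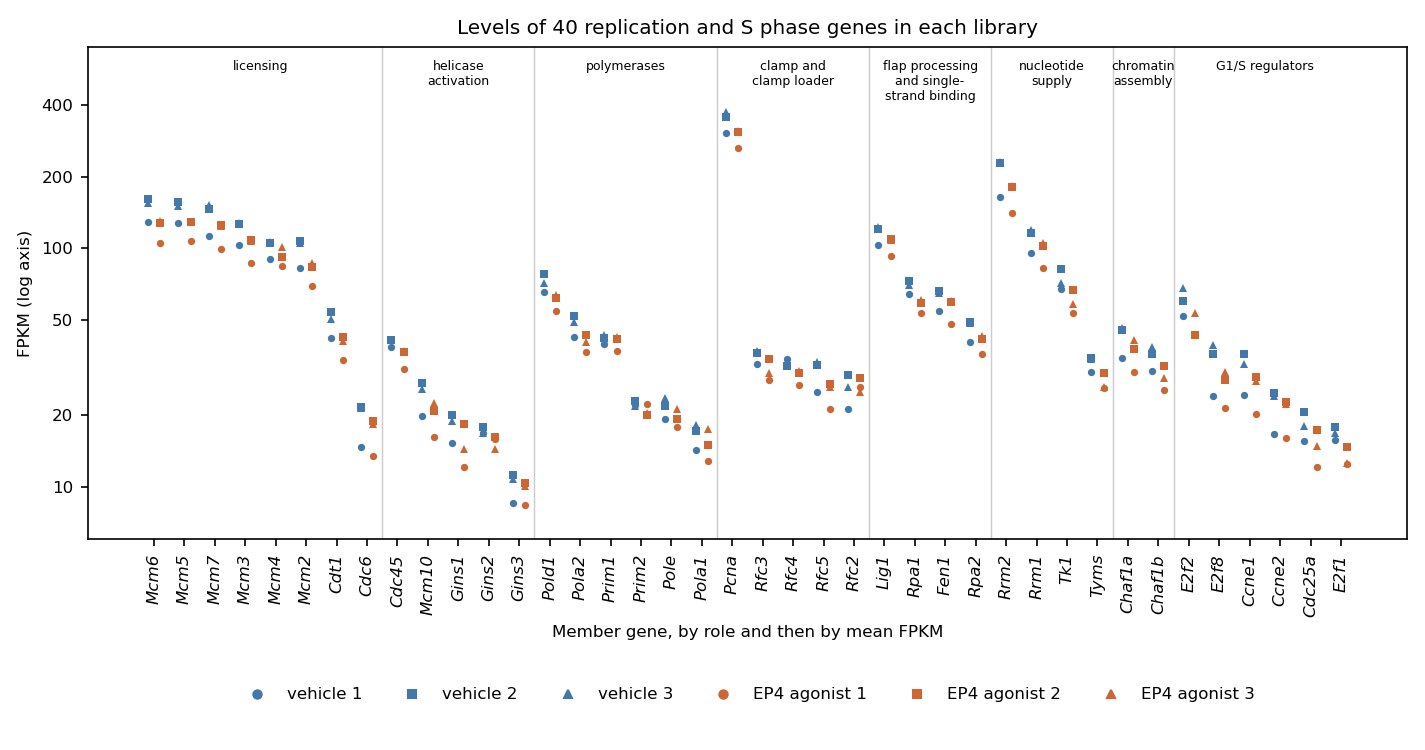
FPKM of each gene in each library on a log axis, grouped by role, with vehicle in blue, agonist in orange and a symbol for each replicate number. Mean levels run from 9.87 FPKM for Gins3 to 320 FPKM for Pcna, and the circles of replicate 1 lie at the bottom of most columns.

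The G1/S regulators, which decide when S phase starts, had the lowest median of the role groups, -0.29. With the block 5 of 6 fell, beside 6.41% of all tested genes. E2f2, an activating E2F factor of lymphocytes, had 51.8, 60.3 and 68.0 FPKM in vehicle replicates 1 to 3 and 43.4, 43.1 and 53.4 FPKM in agonist replicates 1 to 3. Its log2 difference was -0.36 ± 0.13 (SE; adjusted p = 0.294 by limma, falling to 0.0324 in the blocked fit). Only agonist replicate 3 reached into the range of the vehicle libraries. E2f1, the founding activator of the family, had 15.7, 17.7 and 16.8 FPKM in vehicle libraries and 12.4, 14.6 and 12.6 FPKM in agonist libraries, without overlap, a log2 difference of -0.32 ± 0.091 (SE; adjusted p = 0.198, the lowest of the 40 genes without the block, and 0.0312 with it). The repressor E2f8, itself a target of E2F activators, varied most between replicates, with 24.1, 36.1 and 39.1 FPKM against 21.3, 27.9 and 30.3 FPKM. Its standard error of 0.20 was the highest of the 40 (limma, adjusted p = 0.555, or 0.0444 once blocked).

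Cdc25a, the phosphatase that activates CDK2, had 15.5, 20.6 and 17.997 FPKM in vehicle libraries and 12.1, 17.2 and 14.8 FPKM in agonist libraries. Its log2 difference was -0.28 (limma, adjusted p = 0.446, and 0.0350 with the block). The 2 cyclins E, the partners of CDK2 at S phase entry, differed in size of change. Ccne1 had 24.2, 35.9 and 32.6 FPKM against 20.3, 28.8 and 27.7 FPKM, a log2 difference of -0.26 (adjusted p = 0.0349 with the block). Ccne2 had 16.6, 24.7 and 24.1 FPKM against 16.0, 22.6 and 22.3 FPKM, a log2 difference of -0.093 (adjusted p = 0.870, and 0.249 with the block), and its sign turned when vehicle replicate 2 or agonist replicate 1 was left out. Whether the 2 cyclins differ from each other was not tested.

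Since E2F factors bind many promoters of this set, the promoters were searched for 4 spellings of the E2F consensus, TTTCCCGC, TTTCGCGC, TTTGCCGC and TTTGGCGC, on both strands. RefSeq windows of 300 bases (250 before and 50 after the start site, GRCm38.p6) were at hand for 33 of the 40 genes, and 13 of the 33 (39.4%) held at least 1 match, against 2.61% of the 27025 genes with such a window. The CCAAT box, read as CCAAT or ATTGG, was in 20 of the 33 (60.6%) and in 41.1% of all. The median log2 difference was -0.24 for the 13 genes with an E2F match and -0.26 for the 20 without. A match is a string of letters, not a measured binding site. The windows below are those of the gene with the lowest log2 difference among licensing, nucleotide supply and G1/S genes (Cdt1, Tk1 and E2f2) and of Mcm6, which has the most matches. Capitals mark the matches, and positions count from 0 at the start site. Mcm6 (chr1:128359656-128359955, minus strand) has 3, at -110, -106 and -47, of which the outermost and its neighbour overlap on opposite strands. Cdt1 (chr8:122567765-122568064, plus strand) has 1 at 32, and E2f2 (chr4:136172024-136172323, plus strand) has 1 at 39. Tk1 (chr11:117825965-117826264, minus strand) has 0 in this window.
Mcm6: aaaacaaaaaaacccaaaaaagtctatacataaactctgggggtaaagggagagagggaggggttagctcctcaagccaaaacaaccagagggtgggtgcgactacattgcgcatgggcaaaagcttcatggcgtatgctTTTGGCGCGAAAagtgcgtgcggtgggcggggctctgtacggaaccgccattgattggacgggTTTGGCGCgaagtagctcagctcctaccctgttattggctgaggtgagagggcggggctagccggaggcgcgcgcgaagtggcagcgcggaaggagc
Cdt1: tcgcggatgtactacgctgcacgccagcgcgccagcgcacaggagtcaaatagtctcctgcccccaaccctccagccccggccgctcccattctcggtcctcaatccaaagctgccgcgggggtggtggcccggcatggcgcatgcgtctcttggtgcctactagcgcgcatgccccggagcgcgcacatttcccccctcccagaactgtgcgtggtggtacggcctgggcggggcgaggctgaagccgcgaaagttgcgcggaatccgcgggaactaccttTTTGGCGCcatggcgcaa
E2f2: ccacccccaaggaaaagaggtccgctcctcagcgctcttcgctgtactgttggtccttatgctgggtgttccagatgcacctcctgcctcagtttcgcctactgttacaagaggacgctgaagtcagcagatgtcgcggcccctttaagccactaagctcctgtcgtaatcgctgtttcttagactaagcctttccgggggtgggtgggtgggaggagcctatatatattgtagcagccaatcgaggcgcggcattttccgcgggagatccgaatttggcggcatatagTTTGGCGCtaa
Tk1: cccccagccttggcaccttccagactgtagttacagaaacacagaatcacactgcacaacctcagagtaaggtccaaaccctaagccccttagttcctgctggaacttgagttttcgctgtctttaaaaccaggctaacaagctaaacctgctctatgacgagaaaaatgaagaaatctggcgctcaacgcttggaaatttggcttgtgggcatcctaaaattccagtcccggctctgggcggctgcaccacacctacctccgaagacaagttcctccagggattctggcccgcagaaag

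Licensing genes had a median log2 difference of -0.25, all 8 were below 0 (57.2% of all tested genes), and 5 fell with the block (6.41%). In 0 of the 8 were the groups free of overlap, because vehicle replicate 1 lay within the agonist range in each. All agonist values lay below all vehicle values for 12.1% of all tested genes. Cdt1, the loading factor that is destroyed once replication starts, had 42.2, 54.1 and 50.7 FPKM in vehicle libraries and 33.9, 42.3 and 40.7 FPKM in agonist libraries. Its log2 difference of -0.32 ± 0.12 (SE) had the lowest adjusted p of the 40 with the block, 0.0226 (0.319 without it). In the 3 pairs the difference was -0.31, -0.35 and -0.31. The Cdt1 locus lies within the span of another gene model on its strand, Gm20388, whose mean was 20.8 FPKM in the vehicle group and 25.3 FPKM in the agonist group. Cdc6, the ATPase that works with Cdt1, had the lowest level of the group, with 14.6, 21.6 and 21.5 FPKM against 13.5, 18.9 and 18.3 FPKM (log2 difference -0.17, adjusted p = 0.720, and 0.0920 with the block).

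The 6 subunits of the MCM2-7 helicase were abundant and near each other in level, from 89.2 FPKM for Mcm2 to 135 FPKM for Mcm6 as means over all libraries. Mcm6 had 128, 161 and 154 FPKM in vehicle libraries and 105, 128 and 131 FPKM in agonist libraries. Its log2 difference was -0.28 (limma, adjusted p = 0.372, and 0.0319 with the block). Mcm2 had 82.8, 107 and 105 FPKM against 69.4, 83.8 and 87.2 FPKM (-0.29, limma, adjusted p = 0.392, and 0.0301 with the block). Mcm5, at 145 ± 15.1 and 122 ± 12.3 FPKM, and Mcm3, at 119 ± 13.5 and 101 ± 12.4 FPKM, fell with the block too, both at an adjusted p of 0.0360. In limma without the block their adjusted p-values were 0.391 and 0.447. Mcm7 had 137 ± 21.3 and 116 ± 14.6 FPKM (adjusted p = 0.0518 with the block). Mcm4 had the smallest difference of the ring, -0.12, with 89.8, 105 and 106 FPKM against 84.5, 91.7 and 101 FPKM (adjusted p = 0.179 with the block).

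As a share of the summed FPKM of the ring, each subunit stayed within a narrow band over the 6 libraries. Mcm3 made up 15.6 to 16.3%. Mcm6 had shares of 19.9, 20.1 and 19.4% in vehicle replicates 1 to 3 and of 19.1, 19.2 and 19.2% in agonist replicates 1 to 3, without overlap. Mcm4 had the widest band, with 13.9, 13.1 and 13.4% against 15.3, 13.7 and 14.9%, and its groups overlapped. Shares were not tested.

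Helicase activation genes had a median of -0.20, all 5 were below 0 (57.2% of all tested genes), and 1 fell with the block (6.41%). That gene was Mcm10, a scaffold that helps to fire the loaded helicase, with 19.8, 27.2 and 25.7 FPKM against 16.2, 20.7 and 22.3 FPKM. Its log2 difference was -0.28 (limma, adjusted p = 0.460, and 0.0425 with the block). Cdc45, the helicase cofactor with the highest level of the group, had 38.7, 41.0 and 41.3 FPKM in vehicle libraries and 31.2, 36.8 and 37.1 FPKM in agonist libraries. Its groups did not overlap, and its log2 difference was -0.20 (adjusted p = 0.376, and 0.0747 with the block). The 3 GINS subunits were low for this set. Gins1 had 18.01 ± 2.44 and 14.9 ± 3.18 FPKM (log2 difference -0.27, adjusted p = 0.0704 with the block) and Gins2 17.1 ± 0.538 and 15.5 ± 0.990 FPKM (-0.14, 0.161 with the block). Gins3 had the lowest level of all 40, with 8.51, 11.2 and 10.8 FPKM against 8.33, 10.3 and 10.1 FPKM, a log2 difference of -0.076 that was 0.012 without agonist replicate 1.

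The polymerase group differed least, with a median of -0.14 and 2 of 6 genes that fell with the block (6.41% of all tested genes). Pold1, the catalytic subunit of the lagging strand polymerase, had 65.6, 78.2 and 71.5 FPKM in vehicle libraries and 54.4, 62.2 and 63.7 FPKM in agonist libraries, without overlap (log2 difference -0.25 ± 0.099 SE, adjusted p = 0.327, and 0.0465 with the block). Pola2, the accessory subunit of the polymerase that extends primers, had 47.9 ± 4.80 and 40.1 ± 3.37 FPKM (-0.25, limma, adjusted p = 0.347, and 0.0350 with the block). Pole, the leading strand polymerase, had 21.6 ± 2.23 and 19.3 ± 1.68 FPKM (-0.15, adjusted p = 0.101 with the block). Pola1, the catalytic partner of Pola2, was the lowest of the group, with 14.2, 17.1 and 18.2 FPKM against 12.8, 14.9 and 17.4 FPKM (-0.13, adjusted p = 0.172 with the block).

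Both primase subunits, which lay the RNA primers, were close to vehicle. Prim1 had 39.7, 42.2 and 43.2 FPKM in vehicle libraries and 37.0, 41.6 and 42.5 FPKM in agonist libraries, a log2 difference of -0.048 ± 0.082 (SE; adjusted p = 0.843, and 0.516 with the block). Prim2 had 22.1, 22.8 and 21.8 FPKM against 22.1, 19.9 and 20.5 FPKM, a difference of -0.091 ± 0.073 (adjusted p = 0.623, and 0.338 with the block). Within the polymerase alpha-primase complex, Prim1 made up 31.5 to 33.5% of the summed FPKM with vehicle and 34.1 to 35.2% with the agonist, and Pola2 35.9 to 38.7% and 33.5 to 36.2%. For Prim1 the shares of the groups did not overlap, and for Pola2 they did.

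**Figure D3:**
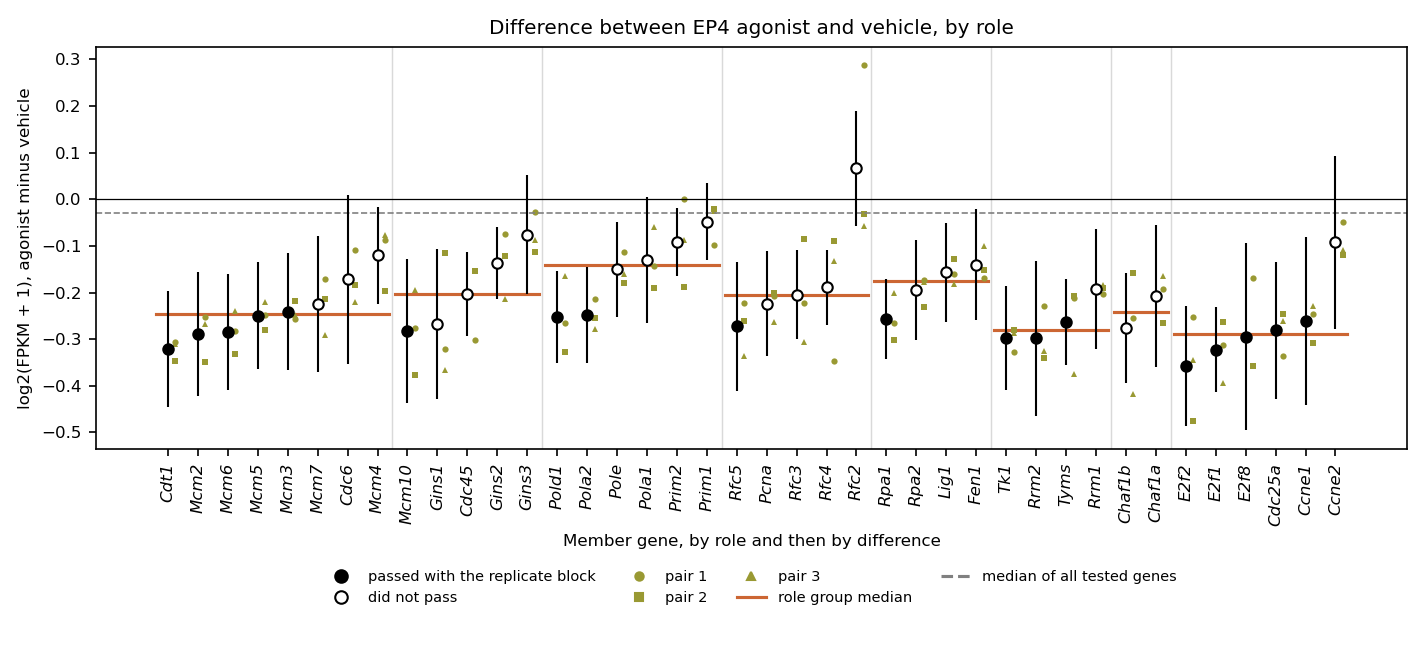
Log2 difference between agonist and vehicle for each gene with its standard error from the fit without a block (circles, filled where the gene passed with the block) and the difference within each pair of equal replicate number (small symbols), by role. Orange lines are role group medians, from -0.29 for G1/S regulators to -0.14 for polymerases, and the dashed line is the median of all tested genes at -0.030.

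Clamp and clamp loader genes had a median of -0.20, and 1 of 5 fell with the block, beside 6.41% of all tested genes. Pcna, the sliding clamp, was the most abundant transcript of the 40, with 306, 356 and 375 FPKM in vehicle replicates 1 to 3 and 265, 309 and 312 FPKM in agonist replicates 1 to 3. Its log2 difference was -0.22 ± 0.11 (SE; adjusted p = 0.431, and 0.0549 with the block), and agonist replicates 2 and 3 reached past vehicle replicate 1. Rfc5 fell with the block, from 25.0, 32.4 and 33.5 FPKM to 21.3, 26.8 and 26.3 FPKM. Its log2 difference was -0.27 (limma, adjusted p = 0.432, and 0.0352 with the block). Rfc3 had 35.4 ± 2.28 and 30.7 ± 3.15 FPKM (blocked adjusted p = 0.0920) and Rfc4 33.3 ± 1.15 and 29.1 ± 2.11 FPKM, the latter without overlap (0.138 with the block).

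Rfc2, a subunit of the same loader, was the 1 gene of the 40 with a difference above 0. It had 21.2, 29.3 and 26.1 FPKM in vehicle libraries and 26.1, 28.6 and 25.0 FPKM in agonist libraries, a log2 difference of 0.066 ± 0.12 (SE; adjusted p = 0.857, and 0.641 with the block). The sign rested on pair 1, at 0.29, while pairs 2 and 3 were at -0.032 and -0.057. The log2 difference of Rfc2 was -0.055 without vehicle replicate 1 and -0.043 with coverage in place of FPKM, so no direction can be given for Rfc2.

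Among genes that process the lagging strand, the median was -0.18 and all 4 were below 0 (57.2% of all tested genes). Of these 4, Rpa1 fell with the block (6.41% of all tested genes). Rpa1, the large subunit of the protein that coats single-stranded DNA, had 64.6, 73.2 and 70.1 FPKM in vehicle libraries and 53.6, 59.2 and 60.8 FPKM in agonist libraries, without overlap. Its log2 difference was -0.26 ± 0.086 (SE; adjusted p = 0.272, and 0.0357 with the block). A gene model on the same strand, AL603834.1, overlaps Rpa1 at 37.5 and 35.1 FPKM. Its partner Rpa2 had 40.6, 49.0 and 48.5 FPKM against 35.8, 41.6 and 42.8 FPKM (-0.19, adjusted p = 0.0550 with the block). Lig1, the ligase that seals Okazaki fragments, had 104, 120 and 123 FPKM against 92.7, 110 and 109 FPKM (-0.16, 0.0865 with the block). Fen1, the nuclease that trims their flaps, had 61.7 ± 6.32 and 56.0 ± 6.67 FPKM (-0.14, 0.106 with the block).

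Nucleotide supply genes had a median of -0.28, and 3 of 4 fell with the block, beside 6.41% of all tested genes. Tk1, the salvage kinase of thymidine, had 67.7, 81.7 and 71.3 FPKM in vehicle libraries and 53.7, 67.0 and 58.2 FPKM in agonist libraries, without overlap. Its log2 difference was -0.30 ± 0.11 (SE; adjusted p = 0.307, and 0.0253 with the block), and the 3 pairs gave -0.33, -0.28 and -0.29. Tyms, which makes thymidylate from scratch, had 30.1, 34.7 and 34.3 FPKM against 25.9, 29.9 and 26.2 FPKM, also without overlap (-0.26, adjusted p = 0.288, and 0.0486 with the block). Rrm2, the regulatory subunit of ribonucleotide reductase, had 164, 229 and 230.1 FPKM in vehicle libraries and 140.2, 181 and 183 FPKM in agonist libraries. Its log2 difference was -0.30 (limma, adjusted p = 0.469, and 0.0337 with the block). Rrm1, the catalytic subunit, had 111 ± 13.0 and 96.8 ± 12.1 FPKM (-0.19, 0.0537 with the block). The ratio of Rrm2 to Rrm1 was 1.72, 1.97 and 1.92 in vehicle replicates and 1.69, 1.77 and 1.74 in agonist replicates, so the groups overlapped through vehicle replicate 1.

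Chromatin assembly factor 1, which places histones behind the fork, was represented by Chaf1a and Chaf1b. Chaf1b had 30.5, 35.9 and 38.6 FPKM in vehicle libraries and 25.4, 32.1 and 28.6 FPKM in agonist libraries (log2 difference -0.28, adjusted p = 0.0598 with the block). Chaf1a had 34.6, 45.6 and 46.4 FPKM against 30.2, 37.8 and 41.3 FPKM (-0.21, adjusted p = 0.0545 with the block). Both were below their vehicle partner in all 3 pairs (31.6% of all tested genes), and 0 of 2 passed the test with the block.

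The order of the role groups was not firm. G1/S regulators, nucleotide supply, licensing and chromatin assembly had medians between -0.29 and -0.24, and helicase activation, the clamp group, lagging strand processing and polymerases between -0.20 and -0.14. The standard deviation of a group's median between replicate libraries, pooled over vehicle and agonist, was 0.22 for G1/S regulators and 0.11 for polymerases on the same log2 scale. That spread takes in the shift of replicate 1 and is not the spread of the differences within pairs. In pairs 1 to 3 the medians were -0.249, -0.286 and -0.303 for G1/S regulators and -0.128, -0.189 and -0.123 for polymerases. In pair 2 the clamp group, at -0.089, differed less than the polymerases. Differences between groups were not tested. Without agonist replicate 1, the medians were -0.15 for G1/S regulators, -0.15 for licensing, -0.13 for helicase activation, -0.14 for chromatin assembly and -0.098 for lagging strand processing. The polymerase median was -0.23 without vehicle replicate 1 and -0.22 without agonist replicate 3. With coverage in place of FPKM, and without vehicle replicate 2 or agonist replicate 1, nucleotide supply was lowest in place of the G1/S regulators. Without agonist replicate 1 or 3, lagging strand processing differed least in place of the polymerases.

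The rest of the pathway was read from 5 further lists with 78 tested genes. Their median log2 difference was -0.13, and 67 of the 78 were below 0, beside 57.2% of all tested genes. In the test without a block 0 passed (limma, 12 lower and 2 higher at an unadjusted p under 0.05, beside 8.74% and 5.22% of all tested genes). With the block 18 fell and 1 rose, beside 6.41% and 4.09% of all tested genes. Nucleotide supply had the largest share of these lists, with 8 of 15 that fell and a median of -0.32. Replication-coupled chromatin followed with 4 of 9 (median -0.20), other E2F and pocket protein genes with 3 of 16 (-0.15), further replisome subunits with 2 of 23 (-0.14) and origin recognition and licensing control with 1 of 15 (-0.10). The counts of these last 2 lists are near the share over all tested genes. In a list of 34 mitosis genes, 29 were below 0 (57.2% of all tested genes), the median was -0.16, and 10 fell with the block (6.41%). Top2a is on both the replisome and the mitosis list. Differences between these lists were not tested.

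**Figure D4:**
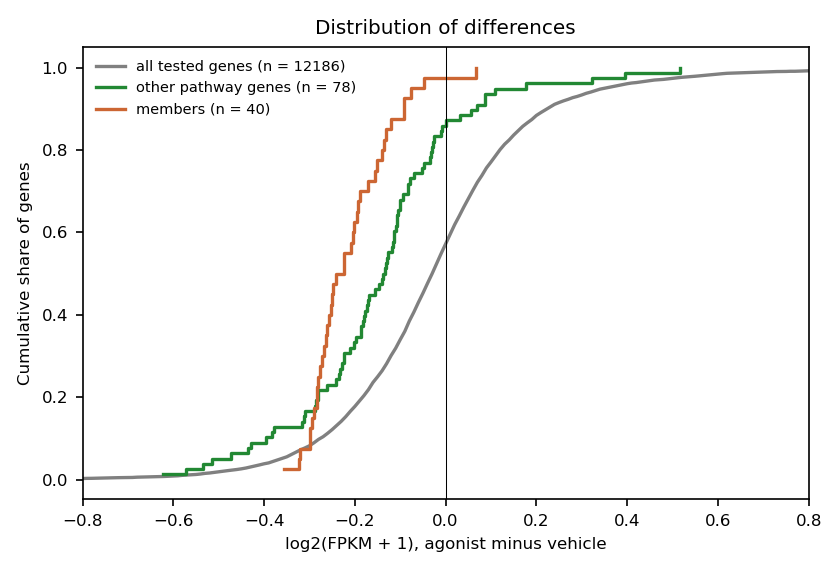
Cumulative share of genes by log2 difference (agonist minus vehicle) for the 40 members, the 78 other pathway genes and all 12186 tested genes. The members rise steeply between -0.36 and -0.048 with Rfc2 alone to the right of 0, while all tested genes are centred at -0.030.

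Of the other pathway genes that passed with the block, 5 of the 6 with the largest differences are on the nucleotide supply list. Without the block 0 of the 78 other pathway genes fell. Mthfd1, a folate enzyme of the cytosol, had 20.1, 32.2 and 28.7 FPKM in vehicle libraries and 13.6, 19.4 and 18.1 FPKM in agonist libraries, without overlap (log2 difference -0.62 ± 0.19 SE, adjusted p = 0.239, and 0.0166 with the block). Shmt2, the mitochondrial serine hydroxymethyltransferase, had 41.5, 71.1 and 59.9 FPKM against 32.3, 43.3 and 37.5 FPKM (-0.57, adjusted p = 0.0253 with the block). Its cytosolic counterpart Shmt1 had 14.4 ± 3.43 and 9.76 ± 2.50 FPKM (-0.51, 0.0167 with the block). Dctd, which deaminates dCMP on the way to thymidylate, had 3.76 ± 0.797 and 2.27 ± 0.356 FPKM (-0.53, 0.0275 with the block). Dctpp1, which removes modified cytosine nucleotides, had 31.7 ± 1.49 and 22.7 ± 3.38 FPKM (-0.47, 0.0313 with the block). Uhrf1, which recruits the maintenance DNA methyltransferase at the fork, had 150.4 ± 22.0 and 111 ± 13.9 FPKM (-0.43, 0.0180 with the block). The 1 riser, named after its value was seen, was Donson, a factor of helicase activation, with 21.7, 21.9 and 21.7 FPKM against 27.2, 30.02 and 29.8 FPKM (log2 difference 0.40 ± 0.071 SE, adjusted p = 0.0901, and 0.0218 with the block). Its agonist values were above all vehicle values.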

How the data were processed

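The authors deposited 1 table per library with coverage (mean read depth per base), FPKM and TPM per gene, per the file headers, on mm10. The submitters' processing notes list Trim Galore and HISAT2. For the abundance program, annotation and strand setting, the entry is "not given in the sources used here", so reads of overlapping genes may not be separated. Opposite-strand gene models overlap further members, among them Eif4a2 over Rfc4 (84.8 and 91.6 FPKM, vehicle and agonist means). Others are Tmem258 over Fen1 (69.8 and 68.8 FPKM), Cops6 over Mcm7 (41.1 and 37.4 FPKM) and Ufd1l over Cdc45 (24.0 FPKM in both groups). Gse1 and Gm20388 overlap Gins2. The deposited TPM column (other unit, summing to over 1000000) was left aside. Whole fragment counts were not recoverable, so precision is the spread between libraries. Aligned bases were read from the usual ratio of the deposited coverage signal to FPKM. That ratio was not the same for every gene, which also bears on the alternative with coverage in place of FPKM.

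The analysis used log2(FPKM + 1) of 12186 reference genes, those reaching 1 FPKM in 3 libraries, which understates changes of low genes. limma 3.58.1 (trend and robust variances, statmod 1.5.0, R 4.3.3) tested agonist against vehicle with Benjamini-Hochberg adjustment over all tested genes at 0.05. "Fell" and "rose" refer to this test, with the block where stated. Only the fit without the block was tested on simulated data, in which libraries varied independently of each other. The blocked fit was not tested in this way. Python 3.11.15, pandas 2.3.3, numpy 2.4.6 and matplotlib 3.10.9 did the rest.

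Groups and replicate numbers came from the titles. Deviations from group means correlated at 0.512, 0.404 and 0.321 for same-numbered libraries and at -0.353 to 0.002 for others. The same-numbered values were over the limit of 0.1 in every pair, and the numbers were therefore treated as pairs. Deviations cancel within a group, so positive values for same-numbered libraries push the others down. The low values of the others are therefore not separate evidence of pairing. The labels do not say what the number stands for. The members, lists, tests and rule for named genes (the 12 lowest and 4 highest differences, the highest and lowest level per role, the 6 smallest blocked p-values) were chosen with earlier results of these data known. Promoter windows are RefSeq's. The summed level of 1 marker list is not reported here.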

Additional observations from a re-analysis of the deposited data

How the results depend on the processing

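The median of the 40 genes stayed below 0 under all alternatives run, at -0.19 with upper quartile scaling and -0.17 with quantile normalization, and between -0.33 (without vehicle replicate 1) and -0.14 (without agonist replicate 1) when 1 library was left out. Without the block, 0 members passed under any alternative. With the replicate block 18 members fell, and 4, 7 and 23 fell with the block plus quantile normalization, upper quartile scaling and coverage. The shares of all tested genes that fell were, in the same order, 6.41%, 3.92%, 3.84% and 9.88%. Of the other pathway genes 18 fell and 1 rose with the block, 12 fell and 2 rose with quantile normalization or upper quartile scaling as well, and 25 fell and 1 rose with coverage. With libraries or pairs left out, 0 to 4 of the other pathway genes fell, beside 0% to 0.739% of all tested genes. Fits that call so few genes cannot show whether the counts rest on single libraries or pairs.

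The log2 difference of Rfc2 turned below 0 with coverage (-0.043 with and without the block), ranged from -0.055 to 0.17 with libraries left out, and was -0.044 with the block and without pair 1. The log2 difference of Ccne2 ranged from -0.27 to 0.061, the log2 difference of Gins3 from -0.19 to 0.012 and the log2 difference of Prim1 from -0.086 to 0.011. An alternative added after seeing the data, which took the loci assembled in each library in place of the reference rows, gave 0.012 for Gins3 and turned no other gene. It gave no value for Cdc6, Tyms and E2f1. The cause of these turns was not tested. Depth is known only as aligned bases, so counting error is not separated from the spread between libraries.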

Other observations

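Of the 40 genes, 6 share a promoter region with a tested gene on the opposite strand that starts within 1000 bases upstream or 200 bases downstream of their own start. These partners are Prkdc (Mcm4), Abhd12 (Gins1), Pxmp2 (Pole), Tmem258 (Fen1), Smyd4 (Rpa1) and Afmid (Tk1), and they encode proteins with roles outside this set. Their median log2 difference was 0.017, in a range of -0.026 to 0.19, and 3 of the 6 were below 0, beside 57.2% of all tested genes. With the replicate block 0 of them passed limma's test. Prkdc, which starts 466 bases from Mcm4 and encodes a DNA repair kinase, had 3.54 FPKM in vehicle libraries and 4.17 FPKM in agonist libraries. Afmid had 10.3 and 10.1 FPKM, while Tk1 across the same region had 73.5 ± 7.27 and 59.7 ± 6.76 FPKM. Whether members and partners differ was not tested.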
